A study of Mus musculus with 15 samples.

Results

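The genes described here encode the enzymes that place and remove methyl groups on DNA, together with the proteins that steer them: Dnmt1, Uhrf1, Dnmt3a, Dnmt3b and Dnmt3l on the writing side, and Tet1, Tet2 and Tet3 on the erasing side. They were found in the deposited table of gene counts by their Ensembl identifiers, which gave 8 genes of 52636, and all 8 were among the 13451 genes with enough counts to be tested. RNA came from mouse epiblast-like cells (EpiLCs), an in vitro counterpart of the early post-implantation epiblast, of the line CRAFR26. All groups carried an inducible c-RAF kinase construct that turns on ERK signalling when 4-hydroxytamoxifen (4OHT) is added. Every culture had spent 48 h in EpiLC medium with bFGF (12 ng/ml), Activin A (20 ng/ml) and the tankyrase inhibitor XAV939 (1 µM), and then 2 h in the FGF receptor inhibitor PD17 (250 nM). The 0h group received no 4OHT (n = 3). The 2h and 4h groups received 250 nM 4OHT for 2 h and 4 h (n = 4 each), and the group called rev received 4 h of 4OHT followed by 2 h of a MEK inhibitor (n = 4). The rev cultures thus ended 2 h later after induction than those of 4h, and no group spent that time without the inhibitor. In comparisons with rev the inhibitor and the added 2 h cannot be told apart. No group spent the 2 h or 4 h of induction without 4OHT either. In 2h vs 0h and 4h vs 0h, 4OHT and the added hours likewise cannot be told apart. The line is represented by 2 clones, 4 and 8. Each contributed 2 samples to every group except 0h, where clone 4 has 1 sample. Quality control by the authors had removed 1 library of that group. The labels call the clones biological, and nothing states whether the 2 samples of a clone came from separate cultures, so p-values measure the spread between these samples, part of which may be technical.

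In mammals DNA methylation is laid down mainly at cytosines followed by guanine (CpG). DNMT1 copies it to the new strand after replication, guided by UHRF1, which binds hemimethylated DNA. DNMT3A and DNMT3B methylate DNA de novo, and DNMT3L, which has no catalytic activity of its own, binds and stimulates them. TET1, TET2 and TET3 are dioxygenases that oxidise 5-methylcytosine and so start its removal. In the mouse, Dnmt3b is strongly expressed in the epiblast and in EpiLCs, where de novo methylation of the genome is under way, while Tet2 is known as a gene of naive embryonic stem (ES) cells. Methylation itself was not measured here, only the RNA of these genes.

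Libraries held 8667880 to 13004556 counts at 0h, 2h and rev, and 1552022 to 6658950 at 4h. Mitochondrial genes took 7.21% to 12.4% of the counts at 4h and 2.67% to 6.98% in the other groups. A single gene entry took 16.1% to 37.5% of the counts at 0h and 12.3% to 33.9% at 2h. It took 18.6% to 36.9% at 4h and 23.2% to 38.0% at rev. The ERK targets Spry4, Dusp6 and Egr1 rose in 2h vs 0h by 6.51, 5.37 and 7.86 on the log2 scale (edgeR adjusted p = 0.000136 or less). All 3 also passed as higher in 4h vs 0h (median log2 change 5.32) and in rev vs 0h (3.84). Of all tested genes 20.5% and 6.49% passed as higher there, in that order. From 2h to 4h all 3 passed as lower (median -1.49), and in rev vs 4h 2 of 3 did (median -1.44). Of all tested genes 19.2% and 15.6% passed as lower there. Markers of pluripotent cells (5 genes, Pou5f1 and Sox2 among them) summed to 411 to 574 CPM (counts scaled to the TMM-adjusted library size) over the 15 libraries, and 5 EpiLC markers (Otx2, Fgf5, Pou3f1, Lef1, Zic2) to 173 to 299 CPM. Within both lists the mean CPM of single genes went in opposite directions from 0h to 4h. Pou5f1 (168 to 99.0) and Lin28a (177 to 144) were lower, and Sox2 (22.3 to 111), Utf1 (113 to 118) and Dppa4 (24.5 to 30.4) higher. Fgf5 (23.2 to 9.03) and Pou3f1 (79.3 to 64.0) were lower, and Otx2 (12.3 to 25.1), Lef1 (30.3 to 67.3) and Zic2 (50.5 to 72.8) higher. Markers of naive ES cells (7 genes) summed to 17.2 to 29.0 CPM outside 4h, to 53.6 and 56.2 CPM in clone 4 at 4h, and to 175 and 197 CPM in clone 8 at 4h. Neuroectoderm markers (3 genes) reached 37.9 to 50.5 CPM at 4h, from Sox1 and Pax6 with Neurog2 at 0 in all 4 libraries, against 2.86 to 10.1 CPM elsewhere. The 4 markers of 2-cell-like cells summed to 4.89 to 11.2 CPM at 4h, with Tcstv3 at 0 in all 4 libraries, and to at most 2.01 CPM elsewhere. Markers of primitive endoderm (6 genes) and of streak and mesoderm (4 genes) stayed at or under 7.43 and 11.1 CPM. The part that depth, mitochondrial RNA or these markers have in any result at 4h was not tested. In bulk RNA, fewer cells expressing a gene and less RNA per cell cannot be told apart.

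Across the time course the members behaved differently. The maintenance pair was called in no comparison over both clones, and its values in 4h vs 0h went opposite ways in the 2 clones. The pair of de novo enzymes was lower at 4h. Tet2 and Dnmt3l were higher at 4h, and the call of Dnmt3l against 0h was lost under total count scaling. Tet1 changed from 0h to 4h by 1.03 ± 0.15 in clone 8 and 0.10 ± 0.19 in clone 4. Its direction over both clones flipped under total count scaling. Tet3 also differed between clones. At 2h, 1 of 8 members passed the test against 0h and was higher (edgeR adjusted p under 0.05), where 6.45% of all tested genes passed (3.98% higher, 2.46% lower). Against 0h at 4h, 5 of 8 passed, 3 higher and 2 lower, where 39.4% of all genes passed (20.5% higher, 18.9% lower). From 2h to 4h, 5 of 8 passed, again 3 higher and 2 lower, against 38.9% of all genes (19.7% higher, 19.2% lower). In rev vs 4h, 5 of 8 differed, 2 higher and 3 lower, against 30.8% of all genes (15.1% higher, 15.6% lower). Compared with 0h, 5 of 8 differed at rev, 2 higher and 3 lower, against 11.2% of all genes (6.49% higher, 4.66% lower). The median log2 change of the 8 members in 4h vs 0h was 0.30, beside 0.03 over all genes tested. These comparisons share samples (0h serves 3 of them and 4h serves 3), so their values are set side by side and are not independent.

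**Figure D1:**
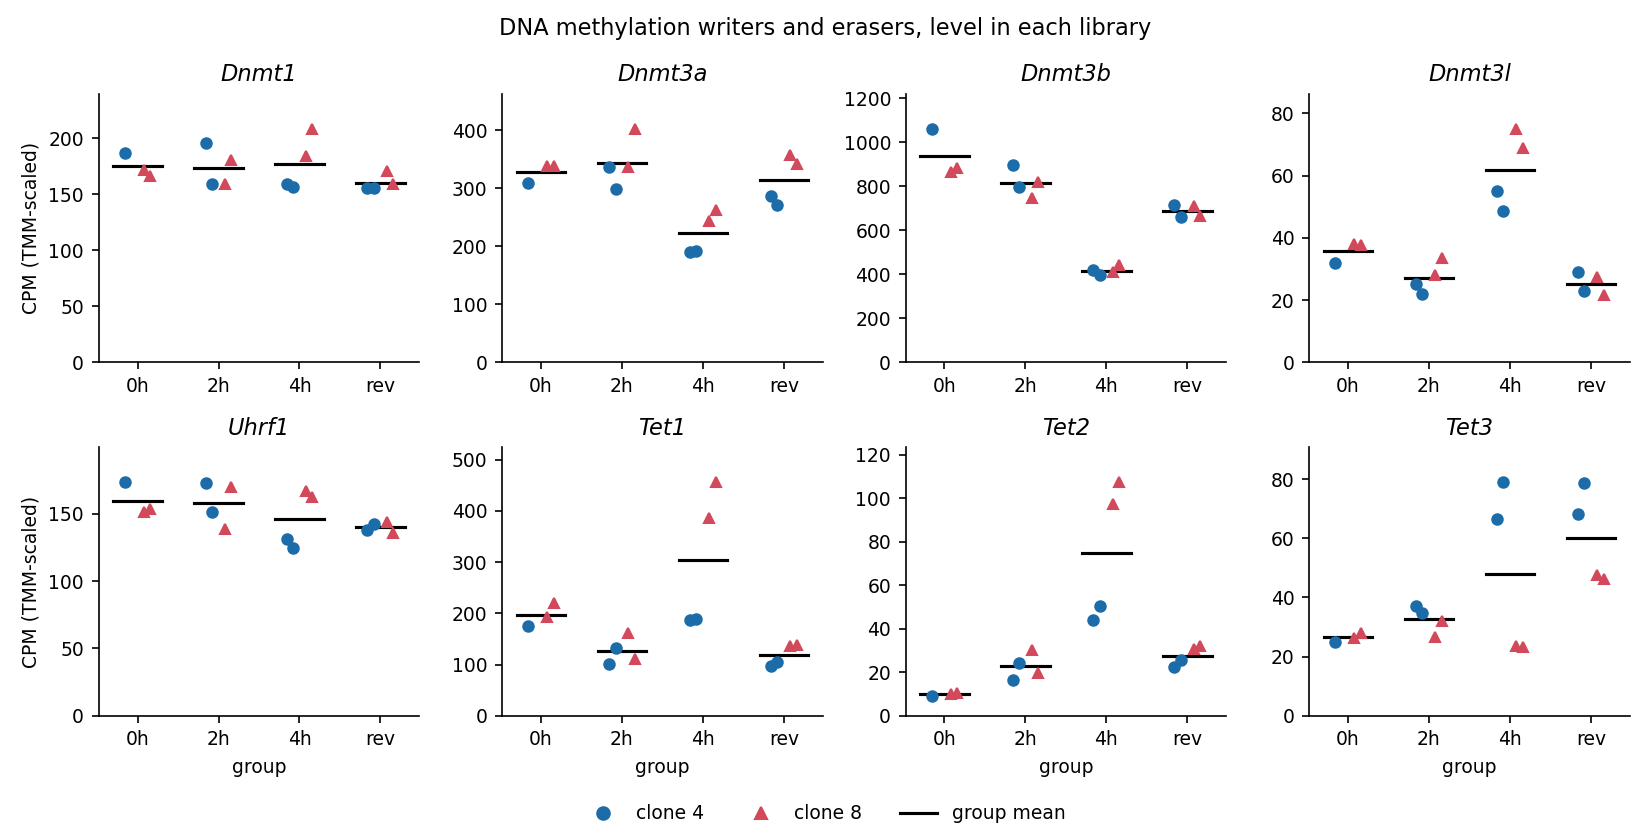
Level of each gene in each library, in CPM after TMM scaling, by group; circles are clone 4, triangles are clone 8, bars are group means, and each axis starts at 0. The 4 libraries at 4h are the lowest for Dnmt3b (398 to 439.5 CPM) and the highest for Tet2 (44.0 to 107 CPM), while for Dnmt1 at 4h 3 lie within the range of the other groups and 1 (208 CPM, clone 8) lies above it.

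Dnmt1, the maintenance methyltransferase (GRCm38 chr9:20907209-20959888, minus strand), passed the test in none of the 5 comparisons. It stood at 187 CPM in clone 4 and at 171 and 166 CPM in clone 8 at 0h. At 2h the libraries gave 195 and 159 CPM in clone 4 and 159 and 181 CPM in clone 8, and at 4h 159 and 156 CPM in clone 4 and 184 and 208 CPM in clone 8. At rev they gave 156 and 155 CPM in clone 4 and 170.2 and 159 CPM in clone 8. All groups overlapped, and the log2 change in 4h vs 0h was 0.02 ± 0.10 (SE, edgeR adjusted p = 0.866).

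Uhrf1, which brings DNMT1 to hemimethylated DNA (chr17:56303321-56323486, plus strand), likewise passed in no comparison over both clones. At 0h it was at 173 CPM in clone 4 and 151 and 154 CPM in clone 8, and at 4h at 131 and 124 CPM in clone 4 and 167 and 162 CPM in clone 8. The 2h libraries gave 173, 151, 138 and 169.6 CPM, and the rev libraries 138, 142, 144 and 136 CPM, in the order clone 4 then clone 8. The rev libraries were all under the 0h libraries by a small margin, and other groups overlapped. The log2 change was -0.12 ± 0.11 in 4h vs 0h (edgeR adjusted p = 0.375) and -0.18 ± 0.11 in rev vs 0h (adjusted p = 0.279). Fitted with only the libraries of rev and 0h, the latter passed (-0.22, adjusted p = 0.0393), with adjusted p from 0.0393 to 0.799 over the 24 alternatives.

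Both maintenance genes are known to be expressed with DNA replication, and a list of 20 replication genes was set beside them. In 4h vs 0h 20.5% of all tested genes passed as higher and 18.9% as lower. None of the 20 replication genes passed as higher and 9 passed as lower, with a median log2 change of -0.22 against 0.03 over all genes. At an unadjusted p under 0.05 the higher genes were also 0, and with DESeq2 they were 0 and the lower ones 10. Under total count scaling 0 were higher and 19 lower, with a median of -0.97, which is -0.24 relative to the median of all genes under that scaling. The largest falls were those of Gins2, of the replicative helicase (-0.84 ± 0.14, edgeR adjusted p = 0.000102), Chaf1a, of the histone chaperone CAF-1 (-0.70 ± 0.13, adjusted p = 0.000339), and Slbp, which binds histone mRNA (-0.64 ± 0.13, adjusted p = 0.000715). In rev vs 4h, 7 of 20 passed as higher and 0 as lower by the edgeR test (9 and 0 at an unadjusted p under 0.05, and 5 and 0 with DESeq2). Of all tested genes 15.1% passed as higher there and 15.6% as lower by the edgeR test.

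Dnmt3b, the main de novo enzyme of the epiblast (chr2:153649450-153687730, plus strand), had the largest count of the 8 genes and fell to 0.443 times its starting level by 4h. RefSeq gives it 1 start in its GRCm38.p6 promoter table, and the 250 bases before that start (chr2:153649199-153649448, plus strand) are shown because this gene fell furthest; CpGs are in capitals.
Dnmt3b: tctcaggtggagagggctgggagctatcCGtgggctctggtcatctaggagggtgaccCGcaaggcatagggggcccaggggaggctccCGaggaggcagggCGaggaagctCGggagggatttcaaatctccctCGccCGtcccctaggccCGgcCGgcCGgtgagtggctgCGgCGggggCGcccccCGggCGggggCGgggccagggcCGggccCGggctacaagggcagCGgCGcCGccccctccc
At 0h it stood at 1061 CPM in clone 4 and 863 and 882 CPM in clone 8. At 2h the libraries gave 896 and 797 CPM in clone 4 and 746 and 818 CPM in clone 8, partly within the range of 0h. At 4h all 4 lay together at 419.7, 398, 408 and 439.5 CPM, under every library of the other groups. At rev they were at 714, 661, 709 and 663 CPM, above all of 4h and below all of 0h. The log2 change was -0.21 ± 0.08 in 2h vs 0h (edgeR adjusted p = 0.116), -1.18 ± 0.08 in 4h vs 0h (adjusted p = 5.42e-10) and -0.97 ± 0.07 in 4h vs 2h (adjusted p = 2.15e-09). From 4h to rev it rose by 0.72 ± 0.07 on the log2 scale (edgeR adjusted p = 2.35e-07). At rev it was 0.45 lower than at 0h (-0.45 ± 0.08, edgeR adjusted p = 0.000534). That last call was lost under total count scaling (-0.79, edgeR adjusted p = 0.0598), the highest adjusted p over the 24 alternatives. The fall in 4h vs 0h passed under all 24 alternatives and ranged from -1.88 to -1.08.

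Dnmt3a, the other de novo enzyme (chr12:3806007-3914443, plus strand), fell less, and its rev libraries spanned the range of those of 0h. It was at 309.6, 338 and 338 CPM at 0h and at 337, 298, 336 and 403 CPM at 2h. At 4h it was at 189 and 192 CPM in clone 4 and 244 and 262 CPM in clone 8, and at rev at 286 and 272 CPM in clone 4 and 357 and 341 CPM in clone 8. The 4h libraries lay under all others, and those of rev were spread by clone, clone 4 below and clone 8 above all of 0h. The log2 change was -0.53 ± 0.08 in 4h vs 0h (edgeR adjusted p = 3.97e-05), 0.50 ± 0.08 in rev vs 4h (adjusted p = 4.37e-05) and -0.03 ± 0.08 in rev vs 0h (adjusted p = 0.862). Clone 8 was higher than clone 4 over the course by 0.28 ± 0.06 (edgeR adjusted p = 0.00132). Its exons share 133 bases with the antisense gene Dnmt3aos, which had at most 6 counts in any library.

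Dnmt3l, the catalytically inactive partner of both (chr10:78041947-78063622, plus strand), moved the opposite way. It was at 32.0 CPM in clone 4 and 38.0 and 37.8 CPM in clone 8 at 0h, and at 25.2, 21.8, 28.0 and 33.6 CPM at 2h. At 4h it reached 55.0 and 48.6 CPM in clone 4 and 75.1 and 69.0 CPM in clone 8, and at rev it was at 28.9, 22.9, 27.3 and 21.5 CPM. The 4h libraries lay above all others and those of rev below all of 0h. The log2 change was 0.82 ± 0.14 in 4h vs 0h (edgeR adjusted p = 7.78e-05), a call that was lost under total count scaling (0.11, adjusted p = 0.765) and held under the other 23 alternatives. It was 1.19 ± 0.13 in 4h vs 2h (edgeR adjusted p = 2.68e-07) and -1.27 ± 0.13 in rev vs 4h (adjusted p = 1.85e-07). At the 4h libraries these values rest on 90 to 330 counts each.
Dnmt3l ended lower at rev than at 0h, by -0.46 ± 0.13 (edgeR adjusted p = 0.0316). This call was lost on leaving out any one of 6 libraries: each of the 3 at 0h (adjusted p = 0.139 without clone 4, 0.0753 and 0.0584 without clone 8 sample 1 or 2), or at rev clone 4 sample 2 (0.0696), clone 8 sample 1 (0.0576) or clone 8 sample 2 (0.153). It was also lost under total count scaling (-0.77, edgeR adjusted p = 0.0849). Over all 24 alternatives its adjusted p ranged from 0.003 to 0.153. The 2.24% of Dnmt3l exon bases that lie opposite Aire (67 bases) could carry counts of that gene, since the handling of strand is not given in the sources used here. Aire itself held 8 to 50 counts per library at 4h (4.89 to 18.8 CPM) and at most 1.54 CPM elsewhere, and its part in the result was not tested.

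Tet2, an eraser known from naive ES cells and blood (chr3:133463679-133545139, minus strand), changed most of the 8 genes and was the one called at 2h. Its RefSeq window of 300 bases around the start holds 57 CpGs, as many as or more than are found in all but 0.152% of 32817 such windows; the 250 bases before the start (chr3:133544391-133544640, minus strand) follow, with CpGs in capitals.
Tet2: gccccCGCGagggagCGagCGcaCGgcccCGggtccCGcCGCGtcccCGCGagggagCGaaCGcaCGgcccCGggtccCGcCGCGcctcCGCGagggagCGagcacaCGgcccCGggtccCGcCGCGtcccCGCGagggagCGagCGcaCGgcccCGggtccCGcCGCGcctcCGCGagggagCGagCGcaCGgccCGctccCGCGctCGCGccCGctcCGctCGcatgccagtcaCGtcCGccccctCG
At 0h it stood at 9.34, 9.96 and 10.4 CPM, from 86 to 173 counts. At 2h it was at 16.7 and 24.3 CPM in clone 4 and 30.3 and 19.5 CPM in clone 8, and at 4h at 44.0 and 50.4 CPM in clone 4 and 97.4 and 107 CPM in clone 8. At rev it was at 22.3, 25.5, 30.6 and 32.2 CPM. Every library of 2h lay above 0h and every library of 4h above 2h, while the rev libraries of clone 4 lay within the range of 2h and those of clone 8 just above it. The log2 change was 1.26 ± 0.20 in 2h vs 0h (edgeR adjusted p = 0.000557), 2.92 ± 0.21 in 4h vs 0h (7.57-fold, adjusted p = 9.86e-09) and 1.66 ± 0.18 in 4h vs 2h (adjusted p = 1.36e-06). It fell by 1.38 ± 0.18 in rev vs 4h (edgeR adjusted p = 1.44e-05) and remained 2.91-fold above 0h (1.54 ± 0.20, adjusted p = 6.49e-05). All 5 calls held under all 24 alternatives. The annotated gene on the opposite strand, Gm42567, which shares 43 exon bases with it, had 0 counts in every library.

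Tet1, the most abundant eraser of pluripotent cells (chr10:62804570-62908996, minus strand), dipped at 2h, stood high at 4h in clone 8, and ended below its start. Its promoter window is shown beside that of Tet2, since both genes are erasers and their values moved apart at 2h, although the change of Tet1 did not pass. The only RefSeq window lies well inside the annotated gene, which begins at 62908996 on this strand, and whether that start was in use was not tested. This window of 300 bases holds 17 CpGs, a number met or passed by 31.4% of windows. The 250 bases before the start (chr10:62887325-62887574, minus strand) read as follows, with CpGs in capitals.
Tet1: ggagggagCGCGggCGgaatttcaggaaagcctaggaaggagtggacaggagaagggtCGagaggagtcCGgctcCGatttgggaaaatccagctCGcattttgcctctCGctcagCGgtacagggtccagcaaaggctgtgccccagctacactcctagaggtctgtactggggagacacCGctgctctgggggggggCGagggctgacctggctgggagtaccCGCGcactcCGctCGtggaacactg
At 0h it was at 175 CPM in clone 4 and 193 and 221 CPM in clone 8. At 2h it was at 100.3, 133, 161 and 111 CPM, under all of 0h. At 4h it was at 188 and 189.8 CPM in clone 4, within the range of 0h, and at 386 and 456 CPM in clone 8, above every other library. At rev it was at 96.7 and 105 CPM in clone 4 and 136 and 139 CPM in clone 8, again under all of 0h.
The dip in 2h vs 0h (-0.54 ± 0.19) did not pass the test (edgeR adjusted p = 0.119). It passed with DESeq2 (-0.56, adjusted p = 0.0398), with only the libraries of 2h and 0h (-0.60, 0.0177) and without clone 8 sample 2 of 4h (-0.57, 0.0301), and over all 24 alternatives the adjusted p ranged from 0.0177 to 0.481. The log2 change was 1.19 ± 0.18 in 4h vs 2h (edgeR adjusted p = 0.000179) and -1.30 ± 0.18 in rev vs 4h (adjusted p = 0.000123), and both passed under all 24 alternatives. In 4h vs 0h it was 0.64 ± 0.20 (edgeR adjusted p = 0.0185), a direction that flipped to -0.07 under total count scaling. That call was also lost without clone 8 sample 1 of 0h (0.54, adjusted p = 0.0801) or clone 8 sample 2 of 0h (0.59, 0.0672), and its adjusted p ranged from 0.00456 to 0.837 over the alternatives. In rev vs 0h Tet1 was lower by -0.65 ± 0.19 (edgeR adjusted p = 0.0446). This last call was lost on leaving out any one of 8 libraries: at 0h clone 4 (adjusted p = 0.27) or clone 8 sample 2 (0.0804), at 2h clone 4 sample 1 (0.058) or clone 8 sample 1 (0.0658), or any of the 4 at rev (0.0775 to 0.113). Over all 24 alternatives the adjusted p lay between 4.88e-06 and 0.27.

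Tet3, the eraser best known from the zygote (chr6:83362373-83459084, minus strand), behaved differently in the 2 clones. At 0h it was at 25.1 CPM in clone 4 and 26.4 and 28.1 CPM in clone 8, and at 2h at 37.1 and 34.7 CPM in clone 4 and 26.6 and 32.0 CPM in clone 8. At 4h it was at 66.6 and 79.0 CPM in clone 4 and at 23.4 CPM in both clone 8 libraries, on 62 to 320 counts. At rev it was at 68.2 and 78.7 CPM in clone 4 and 47.7 and 46.2 CPM in clone 8. The clone 4 libraries were high from 4h on, whereas those of clone 8 were below their 0h libraries at 4h and well above them at rev, with 1 of 2 already above them at 2h. Over both clones the log2 change in 4h vs 0h, 0.57 ± 0.29, did not pass the test (edgeR adjusted p = 0.137) and turned to -0.11 under total count scaling. It passed without clone 8 sample 1 (0.77, adjusted p = 0.0315) or sample 2 (0.76, 0.0417) of 4h, with adjusted p from 0.0315 to 0.77 over the alternatives.
At rev Tet3 was above 0h by 0.99 ± 0.28 on the log2 scale (edgeR adjusted p = 0.0406), and the 2 groups did not overlap. This call was lost on leaving out any one of 10 libraries, namely the 3 of 0h, clone 4 sample 1, clone 4 sample 2 and clone 8 sample 1 of 2h, and the 4 of rev. Over those fits the value lay between 0.69 and 1.12, with adjusted p up to 0.177. The call was also lost under total count scaling (0.70, edgeR adjusted p = 0.137), and over all 24 alternatives the adjusted p lay between 2.77e-05 and 0.177. In rev vs 4h the change of 0.42 ± 0.25 did not pass (edgeR adjusted p = 0.236). It passed without clone 4 sample 2 of 4h (0.66, adjusted p = 0.038) and under total count scaling (0.81, 0.0171). Relative to the median of all genes under that scaling it was 0.36. Its adjusted p ranged from 0.0171 to 0.547 over the alternatives.

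Libraries that do not overlap between groups were counted as well. In 2h vs 0h 2 of 8 members did not overlap, where 19.1% of all tested genes did not, and in 4h vs 0h 4 of 8, against 36.3%. From 2h to 4h it was 5 of 8 against 26.1% of all genes, in rev vs 4h 5 of 8 against 22.8%, and in rev vs 0h 6 of 8 against 25.9%.

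**Figure D2:**
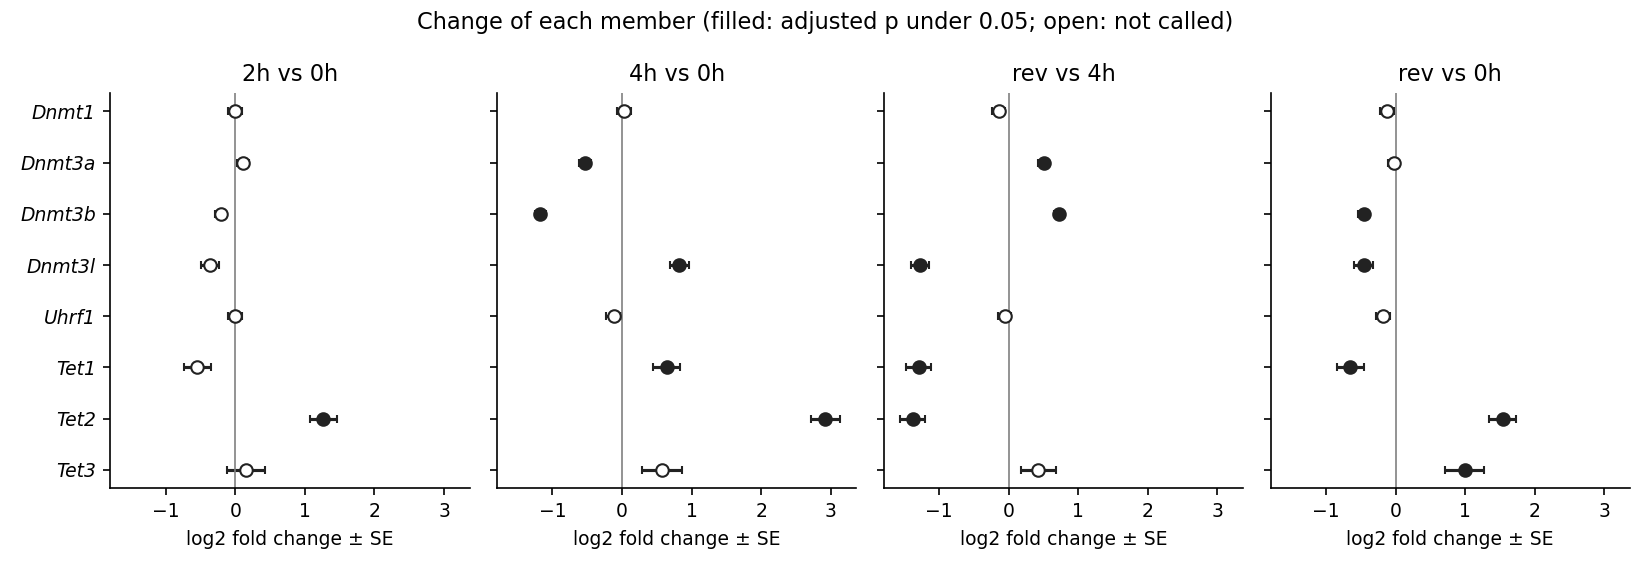
Log2 fold change of each gene with its standard error in 4 comparisons, from the edgeR fit over all 15 libraries; filled points passed the test (adjusted p under 0.05) and open points did not. Tet2 lies to the right at 2h, 4h and rev against 0h (1.26, 2.92 and 1.54) and Dnmt3b to the left in 4h vs 0h (-1.18), while the change of Tet1 in 4h vs 0h (0.64) flipped to -0.07 under total count scaling.

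The scaling of libraries bears on these values, since fold changes are relative to the other genes. Total count scaling divides by totals that include the single entry that took 12.3% to 38.0% of a library and varied within groups. The part of that entry in the results under this scaling was not tested. Under scaling by total counts the median log2 change of all tested genes moved to -0.73 in 4h vs 0h, -0.57 in 4h vs 2h, 0.45 in rev vs 4h, -0.30 in rev vs 0h and -0.18 in 2h vs 0h, where it lay between -0.01 and 0.03 with TMM. The share of called genes that were higher in 4h vs 0h went from 52.0% with TMM to 7.11%. Relative to that median, Tet2 was at 2.90, Dnmt3l at 0.83, Tet1 at 0.65 and Tet3 at 0.62 in 4h vs 0h, and Dnmt3a at -0.52 and Dnmt3b at -1.16. Taken without that reference, the total-count values were 2.18 for Tet2, 0.11 for Dnmt3l, -1.25 for Dnmt3a and -1.88 for Dnmt3b, and Uhrf1 passed as lower (-0.84, edgeR adjusted p = 0.00713), as did Dnmt1 (-0.70, adjusted p = 0.026). Over the 24 alternatives their adjusted p in 4h vs 0h went up to 0.905 and 0.996, and this scaling was the one under which either passed. Uhrf1 also passed as lower from 2h to 4h under it (-0.64, edgeR adjusted p = 0.0358, within 0.0358 to 0.764 over the alternatives).

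To compare levels between genes, CPM was divided by the length of merged exons in kilobases (CPM per kb). Merged exons join all annotated transcripts of a gene, and which of them were in use was not tested. At 0h Dnmt3b led with 183 ± 21.4 (SD, n = 3), ahead of Uhrf1 at 37.5 ± 2.86, Dnmt1 at 23.7 ± 1.45 and Dnmt3a at 19.7 ± 0.992. Tet1 at 12.7 ± 1.47 and Dnmt3l at 12.0 ± 1.14 came next and overlapped, and Tet3 at 1.59 ± 0.0901 and Tet2 at 0.587 ± 0.0321 came last. At 4h (n = 4) the order was Dnmt3b at 81.5 ± 3.51, Uhrf1 at 34.3 ± 5.03, Dnmt1 at 24.0 ± 3.33, Dnmt3l at 20.7 ± 4.09, Tet1 at 19.7 ± 8.88, Dnmt3a at 13.3 ± 2.21, Tet2 at 4.43 ± 1.91 and Tet3 at 2.88 ± 1.73 CPM per kb. Of these neighbours at 4h, Dnmt3b and Uhrf1, Uhrf1 and Dnmt1, and Dnmt3a and Tet2 did not overlap, and the rest did. The order differed by clone (n = 2 each). In clone 4 Tet3 (4.36 CPM per kb) stood above Tet2 (2.80), and in clone 8 below it (1.40 and 6.07). Tet1 was under Dnmt1 and Dnmt3l in clone 4 (12.2 against 21.4 and 17.3 CPM per kb), while in clone 8 its mean was above theirs (27.2 against 26.6 and 24.1). By this measure Dnmt3l stood below Dnmt3a at 0h and above it at 4h, while in CPM it was below it at 4h too (means of 61.9 and 222). At rev (n = 4) Dnmt3b was at 134 ± 5.63, Tet1 at 7.69 ± 1.38, Tet3 at 3.60 ± 0.954 and Tet2 at 1.64 ± 0.271 CPM per kb.

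Exon length is also a property the members share unevenly, since Dnmt3a, Tet1, Tet2 and Tet3 all exceed 15000 bases. Of the tested genes with an annotated exon length 362 are that long, and their median log2 change in 4h vs 0h was 0.20, against 0.02 for the 13079 shorter ones. Among the 4 long members, Dnmt3a fell and Tet2 rose, the rise of Tet1 flipped under total count scaling, and Tet3 gave 0.57 without passing. The part of length in the changes of the Tet genes was not tested.

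Over all groups clone 8 differed from clone 4 in 4 of 8 members (edgeR adjusted p under 0.05), where 18.5% of all genes did (10.4% higher, 8.11% lower). Dnmt3a (0.28 ± 0.06, adjusted p = 0.00132), Tet1 (0.54 ± 0.13, 0.0128) and Tet2 (0.50 ± 0.13, 0.0115) were higher in clone 8, and Tet3 was lower (-0.67 ± 0.19, 0.0284). Under total count scaling the signs were the same but only Tet3 passed. The difference of Tet3 was lost without clone 8 sample 1 of 2h, clone 4 sample 2 of rev or clone 8 sample 2 of rev (adjusted p = 0.0564, 0.0565 and 0.0534), within 0.000912 to 0.0634 over the alternatives. Dnmt3l, at 0.26 ± 0.09 (edgeR adjusted p = 0.0549), passed without clone 4 sample 1 of rev (0.32, adjusted p = 0.0128) or clone 8 sample 2 of rev (0.33, 0.0143), with 0.0128 to 0.772 over the alternatives.

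The responses of the clones were compared in a model that gave every clone its own level in each group. Tet1 (edgeR adjusted p = 0.0433) and Tet3 (adjusted p = 0.000164) differed over the 3 interaction terms together, 2 of 8 members where 3.18% of all genes did. Tet3 passed in all 14 fits that left out a library (adjusted p = 0.00441 or less) and failed under total count scaling (0.188). The joint call of Tet1 was lost in 10 of those 14, namely without either clone 8 library of 0h or any one library of 4h or rev (adjusted p from 0.0665 to 0.281), with 4h reduced to its 2 deeper libraries (0.401) and under total count scaling (0.815). Every member other than Tet3 had that same value under total count scaling. Single comparisons differed between clones in 3.87% (4h vs 0h), 3.14% (from 2h to 4h) and 2.80% (rev vs 4h) of all genes. In 4h vs 0h the change of Tet3 was 1.54 ± 0.18 in clone 4 and -0.22 ± 0.14 in clone 8, a difference of -1.76 ± 0.22 (edgeR adjusted p = 5.02e-05). It passed in all 14 fits that left out a library, from -1.87 to -1.61, and failed under total count scaling (-1.62, adjusted p = 0.393). In rev vs 4h Tet3 changed by 0.01 ± 0.13 in clone 4 and rose by 1.00 ± 0.14 in clone 8, a difference of 0.99 ± 0.19 (edgeR adjusted p = 0.00576) that was lost without clone 4 sample 1 of rev (0.89, adjusted p = 0.0513) and had adjusted p from 0.00197 to 1.00 over the alternatives, the highest with total count scaling.
Tet1 changed by 0.10 ± 0.19 in clone 4 and 1.03 ± 0.15 in clone 8 in 4h vs 0h, a difference of 0.92 ± 0.24 (edgeR adjusted p = 0.0333). This was lost without any one of 6 libraries: clone 8 sample 1 or 2 of 0h (adjusted p = 0.148 and 0.0547), clone 4 sample 1 or 2 of 4h (0.075 and 0.0551), clone 8 sample 2 of 4h (0.123) or clone 8 sample 2 of rev (0.0544). Over all 19 alternatives its adjusted p lay between 1.33e-05 and 1.00. Tet2 changed by 2.34 ± 0.26 in clone 4 and 3.33 ± 0.21 in clone 8, and the difference of 0.99 ± 0.30 did not pass (edgeR adjusted p = 0.074). It did pass on leaving out any one library of 2h, with adjusted p from 0.0248 to 0.0374, within 0.00672 to 0.944 over all alternatives. For Dnmt3b the values were -1.38 ± 0.11 and -1.04 ± 0.09, for Dnmt3a -0.70 ± 0.13 and -0.42 ± 0.10, and for Dnmt3l 0.69 ± 0.20 and 0.93 ± 0.16, in the same direction in both clones. For Uhrf1 they were -0.44 ± 0.14 in clone 4 and 0.11 ± 0.11 in clone 8, and for Dnmt1 -0.25 ± 0.14 and 0.22 ± 0.11, in opposite directions. At 0h clone 4 is 1 library, so these within-clone values rest on it. From 2h to 4h Uhrf1 changed by -0.34 ± 0.11 in clone 4 (edgeR adjusted p = 0.032) and 0.09 ± 0.11 in clone 8 (0.578). Dnmt1 changed there by -0.17 ± 0.12 and 0.21 ± 0.11. Neither difference between clones passed from 2h to 4h (edgeR adjusted p = 0.183 and 0.271). The naive markers given above were also higher in clone 8 than in clone 4 at 4h (175 and 197 against 56.2 and 53.6 CPM), and their part in the clone differences of Tet1 and Tet2 was not tested.

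**Figure D3:**
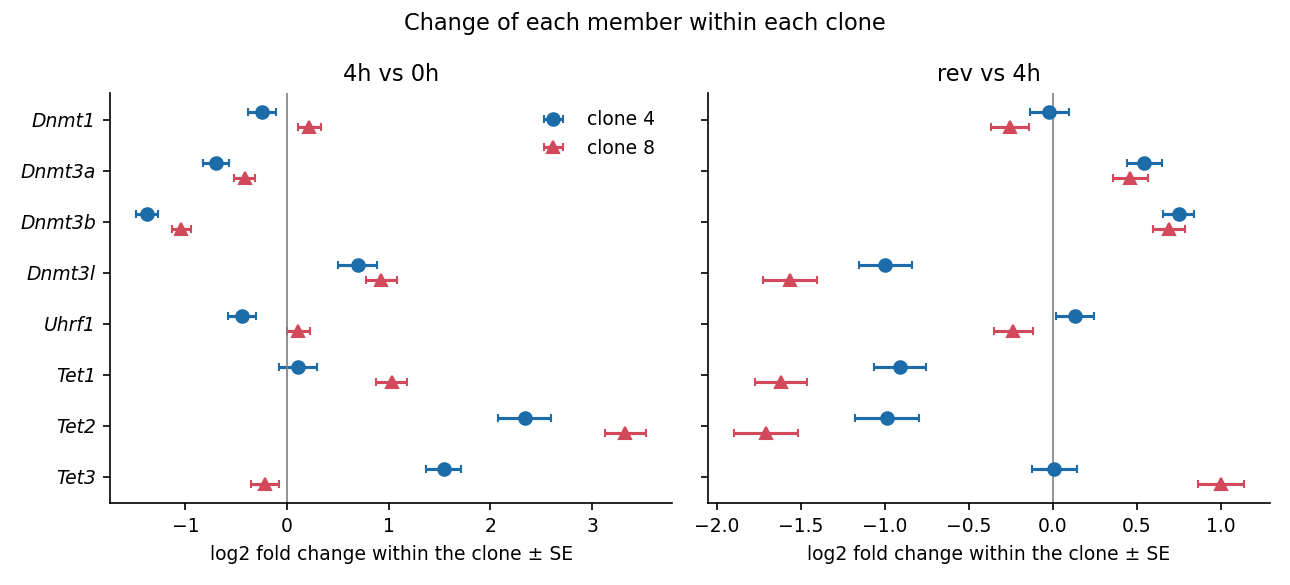
Log2 fold change of each gene with its standard error within clone 4 (circles) and clone 8 (triangles), in 4h vs 0h on the left and rev vs 4h on the right. In 4h vs 0h Tet3 is at 1.54 in clone 4 and -0.22 in clone 8 and Tet1 at 0.10 and 1.03, while Dnmt3b lies below 0 in both clones.

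Ratios of counts between members of the same library do not depend on how libraries are scaled, and 4 pairs were compared in 5 comparisons with an exact two-sided permutation test over samples. With 3 or 4 libraries a group the smallest p-value the test can give is 0.0286. After Benjamini-Hochberg adjustment over the 20 tests the lowest value was 0.0714, and none passed 0.05. The ratio of Tet1 to Tet2 was between 18.7 and 21.1 in the 3 libraries of 0h. It ranged from 5.30 to 6.0 at 2h, from 3.76 to 4.24 at 4h and from 4.10 to 4.43 at rev, with no overlap between 0h, 2h and 4h and with 4h and rev overlapping. The log2 difference from 0h was -1.81 at 2h and -2.28 at 4h (exact p = 0.0286 each), and in rev vs 4h it was 0.08 (exact p = 0.143, adjusted 0.190). Within clones the difference in 4h vs 0h was -2.23 in clone 4 and -2.30 in clone 8. Every library after 0h thus held more Tet2 for each count of Tet1 than any library of 0h, those of rev included.
The ratio of Dnmt3b to Tet1, a writer to an eraser, ranged from 4.00 to 6.05 at 0h, from 4.63 to 8.93 at 2h, from 0.964 to 2.24 at 4h and from 4.78 to 7.38 at rev. The 4h libraries were lower than all others (log2 difference -1.69 from 0h, exact p = 0.0286). Dnmt3a to Dnmt3b went from between 0.292 and 0.392 at 0h to between 0.452 and 0.599 at 4h without overlap (0.58 on the log2 scale, exact p = 0.0286). Uhrf1 to Dnmt1 stayed between 0.778 and 0.950 in all 15 libraries.

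**Figure D4:**
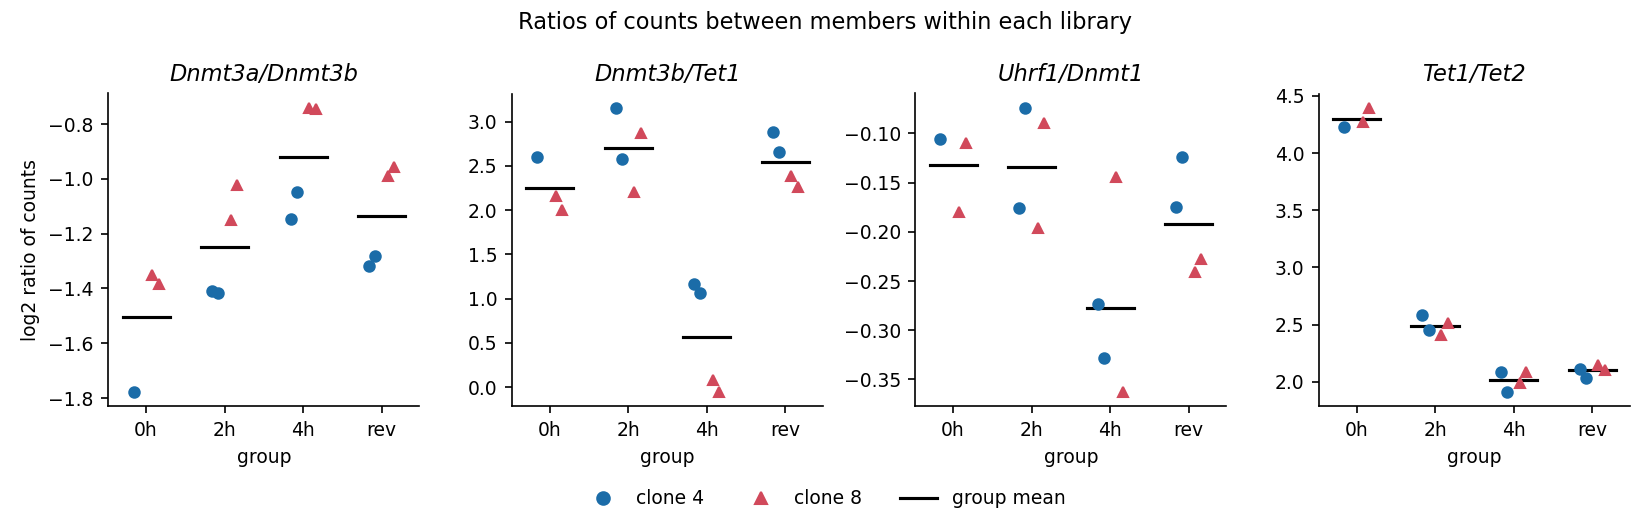
Log2 ratio of the counts of 2 genes within each library for 4 pairs, by group; circles are clone 4, triangles are clone 8, bars are group means, and the vertical axes differ. The ratio of Tet1 to Tet2 has a mean of 4.30 at 0h and of 2.49, 2.02 and 2.10 at 2h, 4h and rev, while that of Dnmt3b to Tet1 has its lowest mean, 0.56, at 4h.

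The promoter windows of the members differed in their CpG content. RefSeq (GRCm38.p6) gives 15 windows of 300 bases for the 8 genes, and the median over all 32817 windows is 7 CpGs. Dnmt3a has windows with 46 and 47 CpGs and an internal one with 18, Dnmt3b 1 with 30, Tet3 1 with 22, and Dnmt1 and Uhrf1 each 1 with 33 beside poorer ones. The only windows of Tet1 and Tet3 also lie well inside their annotated genes, and which starts were in use was not tested. Dnmt3l has 3 windows with 6, 4 and 3 CpGs, under the median of all windows.
Motifs were searched on both strands as exact letters: AP-1 (TGANTCA, in 7.81% of all windows), CRE (TGACGTCA, 1.79%), ETS (CCGGAAGT, 3.89%), 2 EGR forms (GCGTGGGCG, 0.612%, and GCGGGGGCG, 2.91%), E2F (TTTCCCGC, 1.07%), ESRRB (TCAAGGTCA, 0.424%) and SP/KLF (GGGGCGGGG, 11.4%). The window of Dnmt3b held GCGGGGGCG at 2 places, beginning 75 and 58 bases before the start (-75 and -58, both on the plus strand), and GGGGCGGGG from -55, which overlaps the latter. A match to GGGGCGGGG also lay in the internal window of Dnmt3a (-230) and in the middle window of Dnmt3l (-80, minus strand). No other match was found in the 15 windows, which says only that these letters are not in them.

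Genes that work with the writers and erasers were taken as a list of 41 cofactors and readers, of which 40 were tested. In 2h vs 0h, 3 passed as higher and 3 as lower by the edgeR test, where 3.98% and 2.46% of all tested genes did. In 4h vs 0h 13 passed as higher and 9 as lower, where 20.5% and 18.9% of all tested genes did. The median log2 change of the list in 4h vs 0h was 0.19 against 0.03 over all genes. Total count scaling turned the split of 13 and 9 to 4 and 16. It turned the median to -0.56, which is 0.16 above the median of all genes under that scaling. In 4h vs 2h 12 were higher and 7 lower, in rev vs 4h 7 higher and 13 lower, and in rev vs 0h 2 higher and 5 lower. Shares of all tested genes, in the same order, were 19.7% and 19.2%, 15.1% and 15.6%, and 6.49% and 4.66%.
Among the rises at 4h, Prdm14, a repressor of Dnmt3b and Dnmt3l in naive cells, went from 0.0764 ± 0.0665 CPM (SD, n = 3) at 0h to 2.92 ± 2.10 CPM (n = 4, edgeR adjusted p = 4.12e-06), and was at 0.0528 ± 0.0675 CPM at rev. Its means at 0h and rev lay under the limit of detection (3 counts) of every library there. That limit was 0.683 to 1.83 CPM in the 4h libraries, so the Prdm14 value at 4h rests on few counts. Zfp57, which keeps methylation at imprinted regions, went from 9.10 ± 1.52 to 70.5 ± 9.97 CPM (log2 change 2.97 ± 0.17, edgeR adjusted p = 4.18e-11) and returned to 12.1 ± 2.11 CPM. Dppa3, which hinders UHRF1 on chromatin, went from 1.10 ± 0.633 to 5.07 ± 2.07 CPM (2.30 ± 0.47, adjusted p = 0.000671). Of the falls, Gadd45g, a stress-response gene linked to demethylation, went from 33.3 ± 7.50 to 4.76 ± 0.789 CPM (-2.79 ± 0.25, edgeR adjusted p = 7.55e-08). Ahcy, which clears the by-product of methyl transfer, fell by 0.76 ± 0.12 (adjusted p = 6.23e-05), and Idh1, a source of the cofactor of TET enzymes, by 0.57 ± 0.11 (adjusted p = 0.000363). These 3 rises and 3 falls in 4h vs 0h kept their direction and passed under total count scaling. All 6 turned back in rev vs 4h (edgeR adjusted p = 0.00189 or less), with Gadd45g at 10.1 ± 2.5 CPM, still under 0h. Prdm14 and Zfp57 are also known as genes of naive ES cells, whose summed markers were higher at 4h, as given above; their part in these results was not tested.

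**Figure D5:**
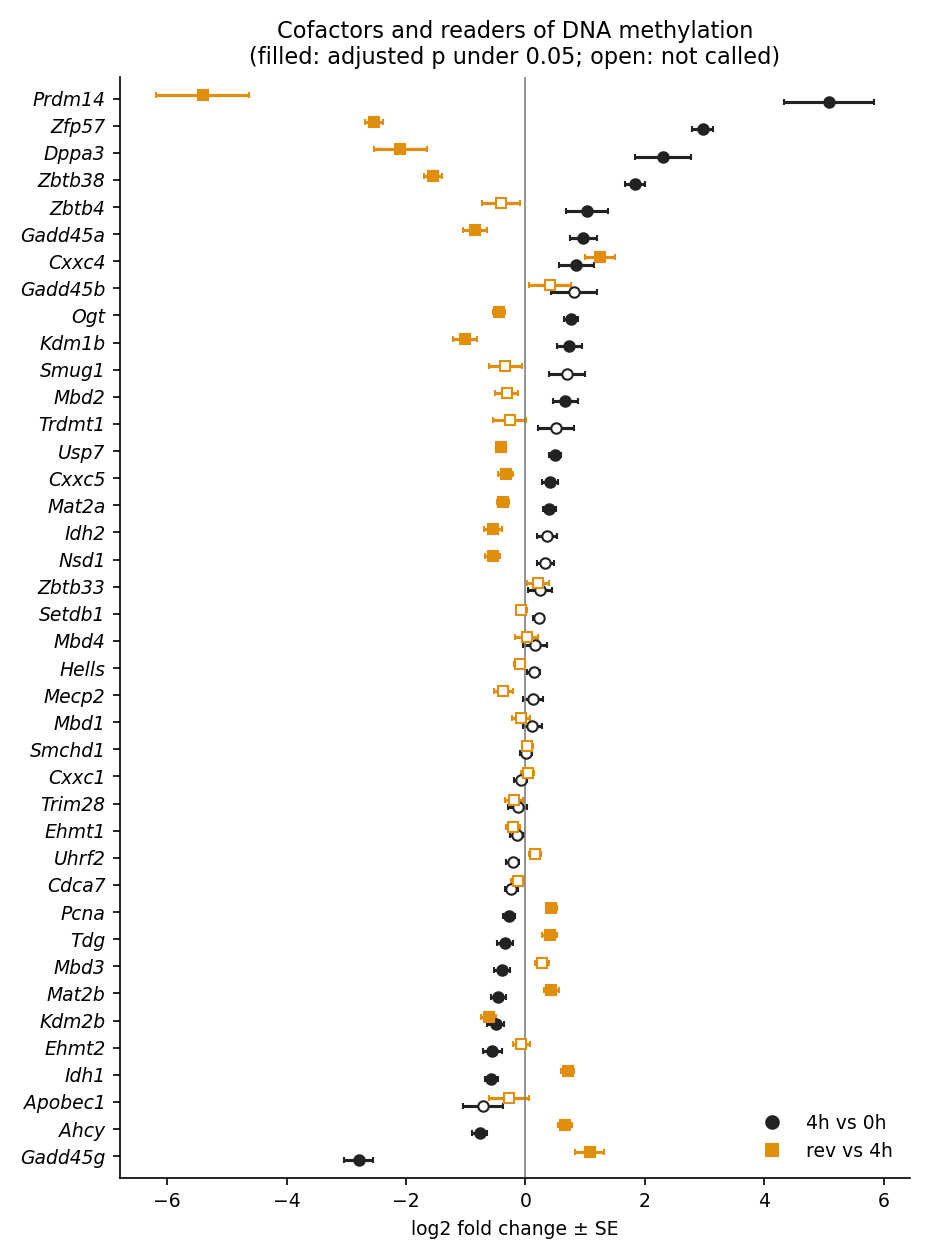
Log2 fold change with standard error of the 40 tested cofactors and readers in 4h vs 0h (circles) and rev vs 4h (squares), ordered by the former; filled points passed the test and open points did not. Zfp57 is at 2.97 and Gadd45g at -2.79 in 4h vs 0h, and their squares lie on the other side of 0.

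For each member the genes with the most similar course were listed by Pearson's r of log2 CPM over all 15 libraries, among 6239 genes with a mean of at least 10 CPM; the libraries share groups and clones, so r is a description. Dnmt3b was closest to Slc9a3r1 (0.98), Ldha (0.97) and Guk1 (0.97), and Dnmt3a to Aacs (0.97), Emg1 (0.96) and Eif4g3 (0.96). Dnmt3l was closest to Akap12, Ccnd3 and Tnrc18 (0.97 each). Tet2 was closest to Pecam1 (0.97), Foxp1 (0.97) and Prune2 (0.96), Tet1 to Zfp652 (0.96), Auts2 (0.95) and Kdm4c (0.95), and Tet3 to Soga3, Ahnak and Hivep2 (0.94 each). For Dnmt1 they were Lig1 (0.93), a DNA ligase of replication, Maz (0.88) and Aspscr1 (0.86), and for Uhrf1 Lmnb1 (0.93), Notch3 (0.89) and Mcm2 (0.89), a subunit of the replicative helicase.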

How the data were processed

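RNA (1 µg of total RNA per sample, depleted of ribosomal RNA with a NEBNext kit) was sequenced in 15 samples. The authors deposited raw read counts per gene for 52636 Ensembl identifiers, whole numbers in which no normalization was seen. The submitters' processing notes name mm10 (GRCm38), STAR 2.5.3a and bcl2fastq 2.19.1 without their roles; how reads were counted, on which annotation and with what strand setting is not given in the sources used here.

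Gene names came from GENCODE M21 and a gene name table (52489 identifiers matched), positions and exon overlaps from GENCODE M21 on GRCm38, and promoter windows (250 bases before to 50 after a start) from RefSeq on GRCm38.p6. Counts were tested with edgeR 4.0.16 in R 4.3.3. A filter on low counts (filterByExpr by group, at least 10 counts, and 15 in total) left 13451 genes, libraries were scaled by TMM (trimmed mean of M-values), and the model held group and clone over all 15 samples. The robust quasi-likelihood F test was two-sided, p-values were adjusted by Benjamini-Hochberg over all 13451 genes, and a gene was called at an adjusted p under 0.05. Differences between clones used a model that gave every clone its own level in each group. Ratios of counts (with 0.5 added to each) were compared by an exact permutation test over samples. The steps were tested on simulated data.

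The members, the other gene lists, the rule for naming genes and the alternatives, other than those said below to be chosen later, were chosen with earlier results of these data known. Named genes are the 8 members, up to 3 called rises and 3 called falls of each other list that were largest in 4h vs 0h, 3 ERK targets and, for each member, the 3 genes closest in Pearson's r (log2 CPM with a prior count of 2). Alternatives were total count scaling, leaving out the 20 most abundant and the mitochondrial genes, DESeq2 1.42.0, no filter beyond 1 count, only the groups compared, no clone term, a replicate block, each library left out in turn and, chosen after seeing the data, edgeR's legacy fit and 4h reduced to its 2 deeper libraries.

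The 3 counts that set the limit of detection correspond to 0.161 to 1.83 CPM per library, and such limits cover counting error only. The libraries within each group differed by more than counting error (chi-square per degree of freedom 6.21 to 255 over pairs), so none was counted as a repeat of another.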

Additional observations from a re-analysis of the deposited data

Results flagged for a closer look

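The clones differed in the response of Tet1 and of Tet3, by a test of the difference itself. Over the 3 interaction terms together the edgeR adjusted p was 0.0433 for Tet1 and 0.000164 for Tet3. As log2 differences, clone 8 minus clone 4, Tet1 gave 0.92 in 4h vs 0h (edgeR adjusted p = 0.0333) and, from 2h to 4h, 0.94 (0.0193), with a rise of 0.69 in clone 4 and 1.63 in clone 8. Tet3 gave -1.76 in 4h vs 0h (adjusted p = 5.02e-05), -1.35 from 2h to 4h (0.000349, with 1.02 in clone 4 and -0.32 in clone 8) and 0.99 in rev vs 4h (0.00576). The joint call of Tet1 did not hold in 10 of 14 fits without 1 library, whereas that of Tet3 held in all of them, while neither passed under total count scaling (adjusted p = 0.815 and 0.188). Under that scaling every member other than Tet3 had the same edgeR adjusted p of 0.815. The Tet3 difference in 4h vs 0h was -1.62 there. The comparisons share the 4h libraries, so these values are not independent of each other, and those from 0h rest on 1 library of clone 4. No library of 2h, 4h or rev stood out from the other 3 of its group for any member, by Dixon's test in 24 groups of 4, where chance would flag about 1 in 20.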

How the results depend on the processing

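The counts of members called in 4h vs 0h, from 2h to 4h and in rev vs 4h stayed within 1.5 times the reported ones under all 24 alternatives. In rev vs 0h 5 became 2 with no clone term, with the replicate block and with total count scaling, and lay between 2 and 5 on leaving out a library. In 2h vs 0h 1 became 2 (Tet1 beside Tet2) with DESeq2, with only the groups compared and with 4h reduced to its 2 deeper libraries, and lay between 1 and 2 on leaving out a library. Between clones, 4 became 1 with total count scaling. For clone differences in response, 2 became 1 with 4h reduced and 0 with total count scaling, and lay between 1 and 3 on leaving out a library. Those differences could not be fitted without the single 0h library of clone 4. The causes were not tested.

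Signs turned with total count scaling for Dnmt1 (-0.70 in 4h vs 0h, -0.49 from 2h to 4h, 0.24 in rev vs 4h), Uhrf1 (0.32 in rev vs 4h), Dnmt3a (-0.083 in 2h vs 0h), Tet1 (-0.071 in 4h vs 0h) and Tet3 (-0.11 in 4h vs 0h, -0.14 from 2h to 4h). Of these, Dnmt1 in 4h vs 0h passed, with an edgeR adjusted p of 0.026. The other sign changes passed under none of their settings. Without the filter Dnmt1 gave -0.10 in 4h vs 0h and -0.087 from 2h to 4h, and Uhrf1 0.029 in rev vs 4h. With 4h reduced Dnmt1 gave -0.053 in 4h vs 0h and -0.030 from 2h to 4h, and Uhrf1 -0.0018 between clones. On leaving out a library the ranges for Dnmt1 were -0.089 to 0.099 (2h vs 0h), -0.081 to 0.114 (4h vs 0h) and -0.059 to 0.085 (from 2h to 4h). For Uhrf1 they were -0.073 to 0.102 (2h vs 0h) and -0.00093 to 0.097 (between clones), for Dnmt3a -0.080 to 0.040 (rev vs 0h) and for Tet3 -0.143 to 0.289 (2h vs 0h). The log2 ratio of Tet1 to Tet2 in 2h vs 0h was -1.71 within clone 4, against -1.81 over both clones.

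The replicate numbers did not pair the samples: of 9 correlations, between groups, of the difference between samples 1 and 2 of a clone, from -0.194 to 0.261, 1 was over 0.1. With the replicate block in place of clone, Dnmt1 gave 0.024 and Uhrf1 0.014 in 2h vs 0h. Under the same block, the edgeR adjusted p in rev vs 0h was 0.0536 for Dnmt3l, 0.102 for Tet1 and 0.0903 for Tet3, and it was 0.0587 for Tet1 in 4h vs 0h.

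The 4h libraries held 525094 to 1456849 counts outside the 20 most abundant and all mitochondrial genes, against 2310615 to 6237654 elsewhere. Tet2 and Tet3 rest there on 62 to 428 counts. Clone 4 has 1 library at 0h, so its own spread at 0h is unknown.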

Other observations

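Germline genes whose promoters are classic targets of DNA methylation were taken as a list of 16, of which 14 were tested. In 4h vs 0h 6 passed as higher and 2 as lower by edgeR's test, where 20.5% and 18.9% of all tested genes did. The median log2 change of the list was 0.41 against 0.03 over all genes. Total count scaling turned the split of 6 and 2 to 3 and 4. It turned the median to -0.37, which is 0.36 above the median of all genes under that scaling. Hormad1, a protein of the meiotic chromosome axis, was at 2.76 ± 0.339 CPM (SD, n = 3) at 0h, 16.5 ± 5.0 CPM (n = 4) at 4h and 4.94 ± 1.64 CPM (n = 4) at rev, a log2 change of 2.58 ± 0.26 (SE) in 4h vs 0h (edgeR adjusted p = 1.22e-07). Dazl, a germ cell RNA-binding protein, went from 2.84 ± 0.589 to 13.0 ± 2.83 CPM (2.15 ± 0.27, edgeR adjusted p = 3.32e-06) and was at 5.94 ± 1.85 CPM at rev. Both fell from 4h to rev (-1.80, edgeR adjusted p = 3.26e-06, and -1.12, 0.00113). Brdt, a testis bromodomain protein, rose by 1.82 ± 0.36 by 4h (edgeR adjusted p = 0.000474) and its change of -0.42 in rev vs 4h did not pass (0.322). Of the falls in 4h vs 0h, Tdrd1, of the piRNA pathway, gave -1.18 ± 0.29 (edgeR adjusted p = 0.00265), and Sycp3, of the synaptonemal complex, gave -0.94 ± 0.36 (0.04), on means of 2.26 CPM at 0h and 1.14 CPM at 4h. Both rose in rev vs 4h (1.26, edgeR adjusted p = 0.00139, and 1.13, 0.0154). These 5 genes kept their direction in 4h vs 0h and passed under total count scaling. With DESeq2 they also kept their direction, but Sycp3 did not pass (-0.96, DESeq2 adjusted p = 0.0967). The split of the list was then 7 higher and 1 lower. The methylation of their promoters was not measured.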
